A study of Homo sapiens with 6 samples.

Results

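The core proteoglycans examined here are 10 genes that encode secreted proteoglycans and related proteins of connective tissue matrix: aggrecan (ACAN), versican (VCAN), decorin (DCN), biglycan (BGN), lumican (LUM), fibromodulin (FMOD), PRELP, osteoglycin (OGN), asporin (ASPN) and lubricin (PRG4). The members are a fixed list of names, and all 10 were found by Ensembl identifier among the 28181 genes listed. RNA was sequenced from 3 libraries of UE7T-9 SHC4 (SHC4 1 to 3) and 3 of UE7T-9 Cont (the controls, Cont 1 to 3). The UE7T-9 line derives from mesenchymal stem cells of human bone marrow, made immortal by telomerase (hTERT) and the papillomavirus E7 gene, and both groups share this background. UE7T-9 SHC4 cells carried the coding region of SHC4, a signalling adaptor protein, in a lentiviral vector with a CMV promoter and puromycin selection. UE7T-9 Cont cells carried GFP in the same vector according to the study's methods, while the labels call them nontarget and wild type. The labels number the libraries as biological replicates, but they do not say whether these were separate infections or cultures, and the design text speaks of clones. The p-values therefore measure the spread between these libraries.

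Proteoglycans are core proteins that carry long sulfated sugar chains. ACAN and VCAN are hyalectans, large core proteins that bind the polysaccharide hyaluronan and fill the space between cells, ACAN mainly in cartilage and VCAN in soft and provisional matrix. DCN, BGN, LUM, FMOD, PRELP, OGN and ASPN belong to the small leucine-rich proteoglycans, which bind collagen fibrils and set their spacing and diameter, and DCN and BGN also bind growth factors such as TGF-beta. PRG4 is a mucin-like lubricant of joint surfaces. Marrow stromal cells are known to make several of these proteins.

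The values are normalized counts, that is reads per gene divided by 1 size factor per library. The whole reads behind them could be recovered, and totals ranged from 18144993 to 27721397 reads per library. The normalized count of SHC4 ranged from 56.5 to 157 in the controls and from 119166 to 155006 in the SHC4 libraries (limma log2 fold change 10.32, standard error 0.32, adjusted p = 2.09e-06). Markers of mesenchymal stem cells were detected in all libraries, and their summed normalized count ranged from 57350 to 78948 in the controls and from 82843 to 92056 in the SHC4 libraries. The 6 of 7 listed hematopoietic markers found in the files summed to between 228 and 418 in all libraries. PTPRC (CD45) reached at most 6.82, while HLA-DRA, the most abundant of them, ranged from 72.8 to 262. CD14 ranged from 52.7 to 88.3 and CD34 from 39.6 to 52.7 (both chosen after their values were seen). Cont 1 correlated more closely with SHC4 1, 2 and 3 (Pearson's r = 0.975, 0.969 and 0.968 across genes) than with the other controls (0.967 and 0.962). Results for the members and the related gene lists are therefore also given without it. By this measure Cont 1 was the control nearest to each SHC4 library, so leaving it out favours a wider difference between groups.

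Per kilobase of transcript, the 10 genes differed widely in mean level. The level of BGN was 4459 ± 5326 normalized counts per kb in the controls, that of LUM 2984 ± 455, that of DCN 2367 ± 1101, that of ACAN 741 ± 612 and that of VCAN 414 ± 236 (SD, n = 3 each). FMOD followed with a level of 106 ± 85.7 per kb, then ASPN with 15.7 ± 6.98, PRELP with 9.63 ± 6.999 and PRG4 with 2.27 ± 2.13 (SD, n = 3 each). OGN, a small proteoglycan first found in bone, was lowest at 0.461 ± 0.172 per kb. In the SHC4 libraries the level of BGN was 5354 ± 2313 per kb, that of DCN 4827 ± 1347, that of ACAN 4518 ± 1413 and that of LUM 3348 ± 1067 (SD, n = 3 each). The level of VCAN was 642 ± 68.7, that of FMOD 140 ± 2.95, that of PRELP 18.8 ± 1.11, that of ASPN 16.1 ± 5.77 and that of PRG4 0.512 ± 0.173 per kb (SD, n = 3 each), and OGN had no reads. The ranges of BGN, DCN, ACAN and LUM overlapped one another in the SHC4 libraries, so their order was not resolved. In the controls LUM lay above ACAN in every library, and BGN overlapped LUM, DCN and ACAN. The lengths are those of the longest principal transcript in GENCODE 29, and with all exonic bases counted DCN dropped from rank 2 to rank 4 in the SHC4 libraries. Bulk RNA cannot separate fewer cells expressing a gene from less RNA per cell.

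ACAN, at chr15:88803442-88875354 (plus strand, positions on GRCh38), had the largest difference of the family. Its normalized count was 11489.8, 7726 and 695 in Cont 1, 2 and 3, and 29035, 38276 and 54052 in SHC4 1, 2 and 3. All 3 SHC4 libraries lay above all 3 controls. The means were 6637 ± 5479 and 40454 ± 12650 (SD, n = 3 each). The limma log2 fold change was 3.31 (standard error 0.86, 95% interval 1.37 to 5.25), with an unadjusted p of 0.00377 and an adjusted p of 0.18 over all genes tested, so ACAN was not called. On the recovered reads, DESeq2 gave a lower value of 2.61 (standard error 0.99, adjusted p = 0.114), and edgeR gave 2.61 (adjusted p = 0.198). Of the 12678 genes averaging 50 or more, 5 had a limma log2 increase at least as large as that of ACAN, with ACAN itself and SHC4 among them. The exact permutation test over libraries gave a two-sided p of 0.1, the smallest that 3 against 3 allows. The spread of ACAN in the controls was wide, with a 16.5-fold range against 1.86-fold in the SHC4 libraries. On the log2 scale its SD in the controls was 2.19, above that of 99.9% of the 12678 genes. The difference kept its direction with each library left out, with log2 fold changes from 2.06 without Cont 3 to 4.08 without Cont 1 (limma adjusted p = 0.129 and 0.0185).

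**Figure D1:**
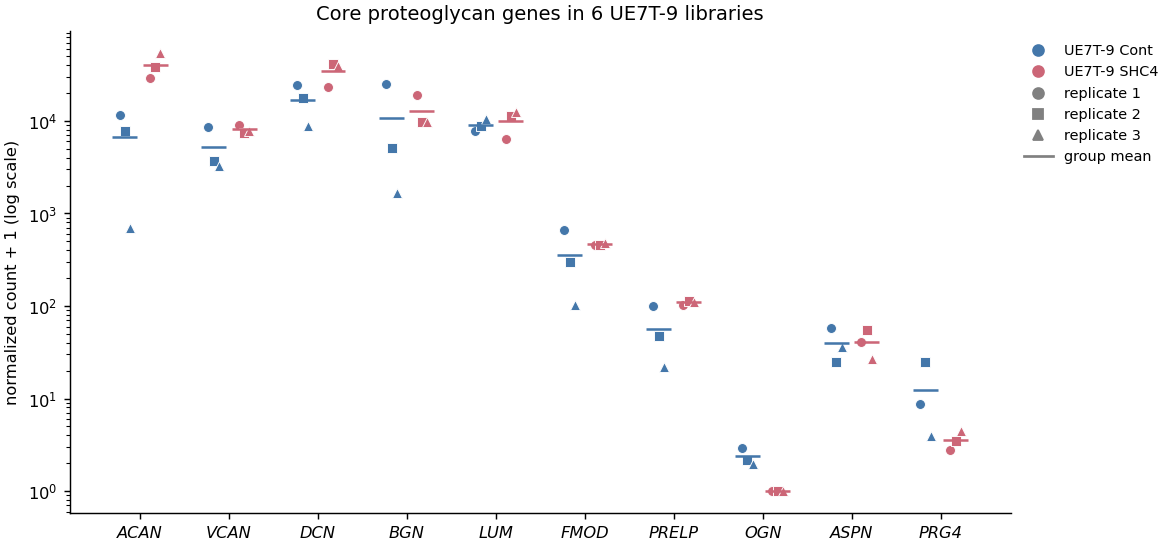
Normalized count plus 1 (log axis) of the 10 proteoglycan genes in each library, with 1 point per library, colour for the group, marker shape for the replicate number and a bar for the group mean. All 3 SHC4 points of ACAN and PRELP lie above the controls, whereas the groups overlap for VCAN, DCN, BGN, LUM, FMOD, ASPN and PRG4.

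VCAN (chr5:83471465-83582303, plus strand), the hyalectan of provisional matrix, had normalized counts of 8665, 3724 and 3293 in the controls and 9085, 7450 and 7762 in the SHC4 libraries. Cont 1 lay within the range of the SHC4 libraries, and the other controls lay below it. The limma log2 fold change was 0.77 (standard error 0.32, 95% interval 0.05 to 1.49, adjusted p = 0.317). The antisense gene VCAN-AS1, which overlaps VCAN, had a mean normalized count of 1.43. The ratio of the ACAN to the VCAN normalized count within a library was 1.33, 2.07 and 0.211 in the controls and 3.20, 5.14 and 6.96 in the SHC4 libraries, so it did not overlap between groups.

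Among the small leucine-rich proteoglycans, DCN (chr12:91140484-91183123, minus strand), which binds collagen fibrils and TGF-beta, had the highest mean count in each group. Its normalized count was 24449, 17626 and 8739 in the controls and 23446, 40877 and 39304 in the SHC4 libraries. The groups overlapped through the highest control and SHC4 1. The limma log2 fold change was 1.11 (standard error 0.37, 95% interval 0.27 to 1.95, adjusted p = 0.242), and DESeq2 on the recovered reads gave 1.03 (standard error 0.34, adjusted p = 0.0584). LUM (chr12:91102629-91111831), a keratan sulfate proteoglycan, lies on the same strand of chromosome 12 and is separated from DCN by 28.7 kb. Its normalized count was 7698, 8815 and 10419 in the controls and 6406, 11432 and 12375 in the SHC4 libraries, with full overlap of the controls by the range of the SHC4 libraries (limma log2 fold change 0.12, standard error 0.25, 95% interval -0.45 to 0.68, adjusted p = 0.866). The DCN to LUM ratio was 3.18, 2.00 and 0.839 in the controls and 3.66, 3.58 and 3.18 in the SHC4 libraries, where Cont 1 and SHC4 3 had almost the same ratio. These ratios were chosen after the values were seen and were not tested.

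BGN (chrX:153494939-153509554, plus strand), the close relative of DCN, had a 15.2-fold range in the controls, the widest after ACAN, and a 2.00-fold range in the SHC4 libraries. Its normalized count was 25349, 5114 and 1669 in the controls and 19274, 9638 and 9668 in the SHC4 libraries. Replicate 1 was the highest library of BGN in both groups, and the range of the SHC4 libraries lay inside that of the controls. The limma log2 fold change was 1.02 (standard error 0.79, 95% interval -0.77 to 2.80, adjusted p = 0.596), and DESeq2 gave 0.26 (standard error 1.05, adjusted p = 0.939). HAUS7, which overlaps BGN on the other strand, had a mean normalized count of 55.0, far below that of BGN. Without Cont 1 the limma value of BGN was 2.06, and without Cont 3 it was 0.09, so the estimate rested on single controls.

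FMOD (chr1:203340628-203351758, minus strand) and PRELP (chr1:203475828-203491352, plus strand) bind collagen and lie 124 kb apart. The normalized count of FMOD was 659, 294 and 100.3 in the controls and 459.6, 455 and 474 in the SHC4 libraries. All SHC4 libraries lay within the range of the controls and close to one another. The limma log2 fold change of FMOD was 0.78 (standard error 0.53, 95% interval -0.42 to 1.98, adjusted p = 0.538). PRELP, which also binds heparan sulfate, had normalized counts of 99.4, 45.9 and 20.7 in the controls and 101, 113 and 111 in the SHC4 libraries. The groups of PRELP did not overlap, but Cont 1 and SHC4 1 were nearly equal (102 and 115 reads before scaling). Its limma log2 fold change was 1.22 (standard error 0.47, 95% interval 0.16 to 2.29, adjusted p = 0.291).

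The remaining members were scarce. ASPN (chr9:92456205-92482506, minus strand), which lacks the sugar chains of its relatives, had normalized counts of 57.5, 23.5 and 35.4 in the controls and 39.5, 54.1 and 25.6 in the SHC4 libraries, with overlapping groups (limma log2 fold change 0.06, standard error 0.41, 95% interval -0.87 to 1.00, adjusted p = 0.962). PRG4 (chr1:186296279-186314562, plus strand) had 8, 20 and 3 reads in Cont 1, 2 and 3 against 2, 3 and 3 reads in SHC4 1, 2 and 3. Its normalized count was 7.80, 23.5 and 2.95 in the controls and 1.76, 2.497 and 3.49 in the SHC4 libraries, so every SHC4 library was at or under the floor of 3 reads. The limma log2 fold change of PRG4 was -1.43 (standard error 0.71, 95% interval -3.04 to 0.17, adjusted p = 0.402). PRG4 overlaps TPR, a nuclear pore gene on the other strand with a mean normalized count of 4782. OGN (chr9:92383967-92404696, minus strand) was the member that did not pass the filter of a mean normalized count of at least 1. It had 2, 1 and 1 reads in the controls and 0 reads in each SHC4 library, which allows up to 3 reads, so no difference was detectable at this depth. OGN and ASPN both overlap CENPP on the other strand (mean normalized count 213), and ASPN lies 51.5 kb from OGN on chromosome 9.

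As a group, 8 of the 9 tested members had a positive log2 fold change and 1 (PRG4) a negative one, with a median of 0.78. Over all 23040 genes tested, 49.7% were positive and the median was -0.004. No member was called by limma (adjusted p < 0.05 and a log2 fold change beyond 1 either way), where 0.0608% of all genes tested were called in either direction. At an unadjusted p below 0.05, 4 members (ACAN, DCN, PRELP and VCAN) were higher, against 7.47% of all genes. DESeq2 on the recovered reads, which called 2.2% of its genes at the same thresholds, called 0 of the 8 members it tested, and edgeR called 0 of 8. With the replicate number as a term in the limma fit, 0 of 9 were called, while the calls over all genes went from 12 higher and 2 lower to 25 and 14. No control reached any SHC4 library for 2 of the 9 members (ACAN and PRELP), as for 9.13% of all genes tested. Without Cont 1, this held for 6 of the 9 (ACAN, VCAN, DCN, BGN, FMOD and PRELP), against 18.7% of all genes. In the limma fit without that library, 5 members were called higher (ACAN, VCAN, DCN, BGN and PRELP), where 1.59% of 23087 genes were called higher and 1.47% lower. FMOD had an adjusted p of 0.0518 in that fit. Cont 1 was the highest control for ACAN, VCAN, DCN, BGN, FMOD and PRELP. Leaving it out could therefore only raise their log2 fold changes, and that fit was no independent test of them. No member was called when any other library was left out.

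**Figure D2:**
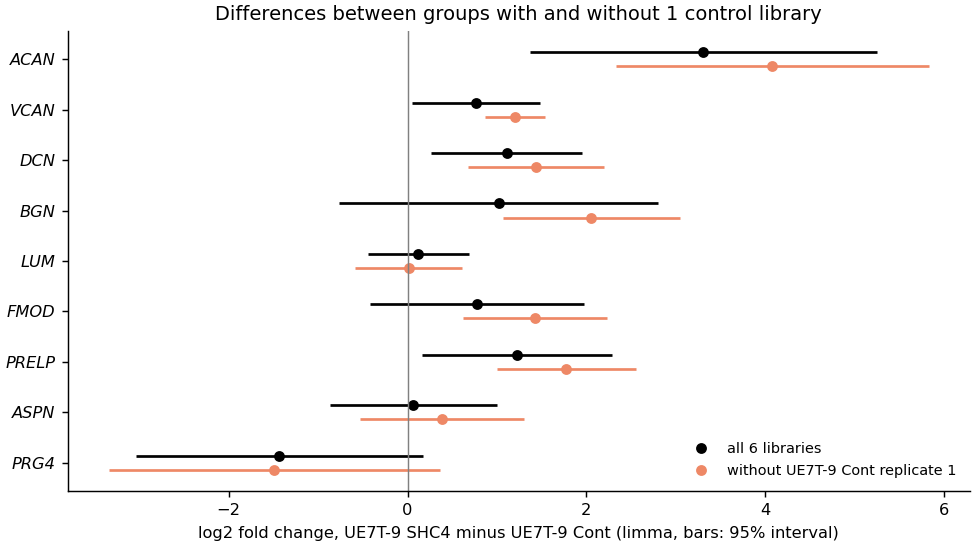
Limma log2 fold change (SHC4 minus control) of the 9 tested members, with 95% intervals, from all 6 libraries (black) or without Cont 1 (orange). Without that library the intervals of ACAN, VCAN, DCN, BGN, FMOD and PRELP lie above 0, while LUM, ASPN and PRG4 keep intervals that include 0.

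The control libraries differed from one another in the same way for most of the abundant members. Cont 1 was the highest and Cont 3 the lowest control library for ACAN, VCAN, DCN, BGN, FMOD and PRELP, that is for 6 of the 7 members with a mean of at least 50. The same order was found in 26.8% of the 12678 genes at that level. LUM had the opposite order. The SD of log2 values in the controls was 1.97 for BGN, 1.36 for FMOD, 1.11 for PRELP, 0.76 for VCAN and 0.76 for DCN, each above that of at least 95% of these genes, whose median was 0.198. LUM had an SD of 0.22. In the SHC4 libraries the SD was 0.03 for FMOD and 0.09 for PRELP, and from 0.15 to 0.58 for the other 5 of these genes, where the median over genes was 0.164. There the SDs of ACAN, DCN, BGN and LUM were also high, above those of 92.1% to 96.2% of genes, and that of VCAN was above 45.4%. Over the 6 libraries, Pearson's r between log2 values was 0.960 for ACAN and DCN and 0.951 for FMOD and PRELP, whereas LUM had values from -0.494 (with BGN) to 0.220 (with DCN). These values describe 6 libraries that fall into 2 groups, and each library's size factor is shared by all genes. The genes most alike over the 6 libraries, among 12677 others, were PDE5A for ACAN (r = 0.998), OSBPL1A for DCN (r = 0.998), ETV3 for BGN (0.998), ZNF395 for VCAN (0.997), CDO1 for LUM (0.998), NPAS2 for FMOD (0.999) and PDE1A for PRELP (0.998).

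**Figure D3:**
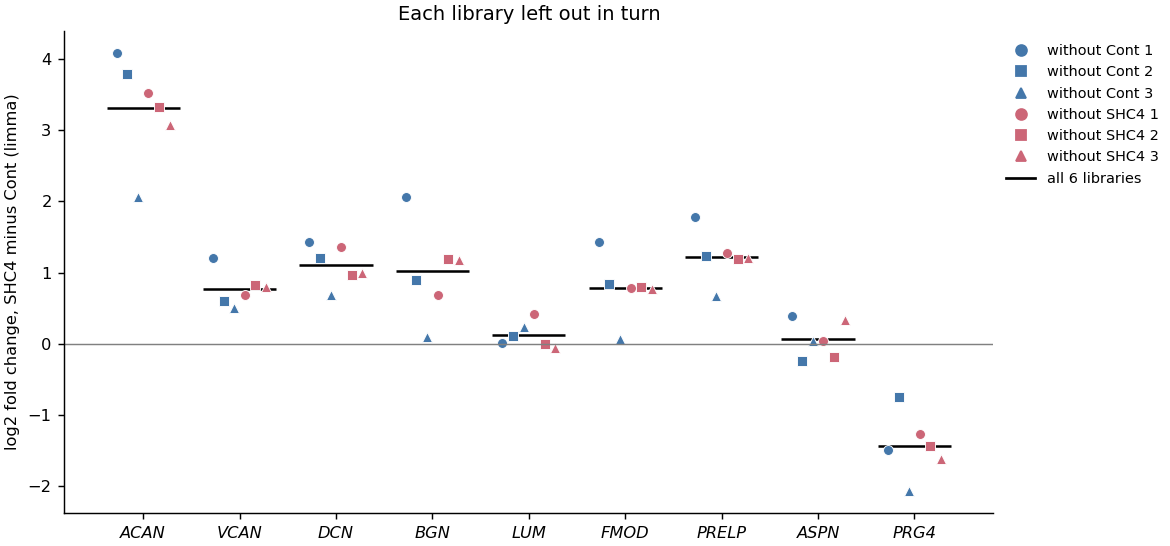
Limma log2 fold change of the 9 tested members for all 6 libraries (black bar) and after dropping 1 library at a time (points, colour for the group and shape for the replicate left out). Leaving out Cont 1 gives the highest value for ACAN (4.08), BGN (2.06) and 5 other genes, and leaving out Cont 3 gives the lowest for ACAN (2.06) and BGN (0.09).

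The make-up of the family's transcript pool differed between libraries as well. ACAN made up 6.85%, 9.81% and 1.35% of the summed per-kb level of the 10 genes in the controls and 18.5%, 23.0% and 29.5% in the SHC4 libraries, with no overlap. LUM made up 60.1% of the pool in Cont 3 and 13.7% in Cont 1, while in the SHC4 libraries its share ranged from 12.1% to 20.5%. BGN was the leading gene in replicate 1 of both groups, with 56.3% in the controls and 45.7% in the SHC4 libraries. The summed normalized count of the 10 genes was 78476, 43394 and 24976 in the controls and 87848, 108298 and 123774 in the SHC4 libraries. These shares move with the transcript length assigned to each gene and are given without a test.

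**Figure D4:**
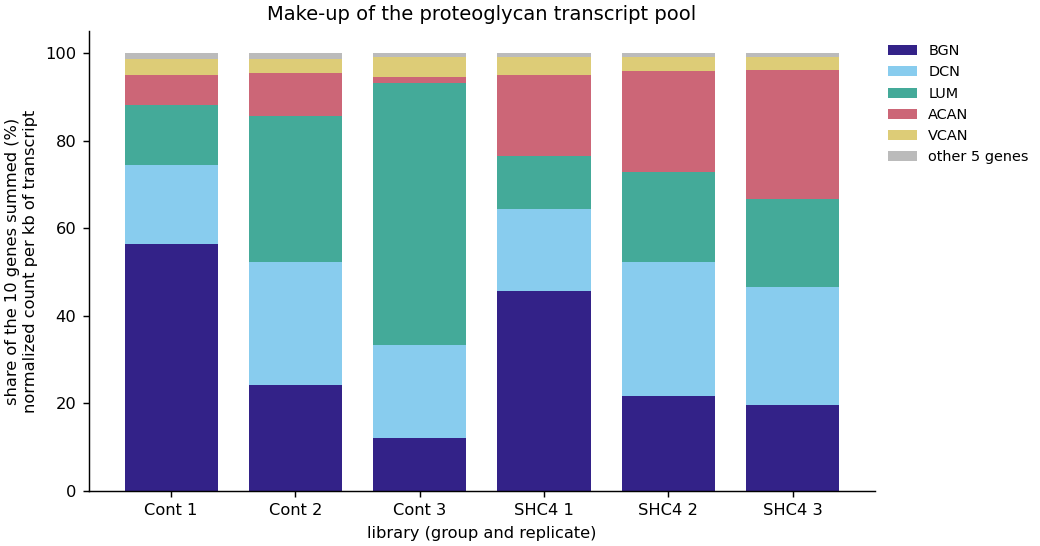
Share (%) of each gene in the summed level of the 10 proteoglycan genes per library, from normalized counts per kb of the longest principal transcript. ACAN takes 18.5% to 29.5% in the SHC4 libraries and 1.35% to 9.81% in the controls, and LUM takes the largest part of Cont 3.

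RefSeq promoter windows on GRCh38.p14 were found for 8 of the 10 genes (all but DCN and LUM). For OGN and PRG4 the first of the listed starts was used. The 250 bases before the start are shown for ACAN and BGN, abundant genes whose levels spread most in the controls, and for ASPN, a scarce gene with similar levels in both groups. Capitals mark the GC box GGGCGG or its reverse complement. The windows are chr15:88803186-88803435 (plus strand), chrX:153494730-153494979 (plus strand) and chr9:92482507-92482756 (minus strand).
ACAN: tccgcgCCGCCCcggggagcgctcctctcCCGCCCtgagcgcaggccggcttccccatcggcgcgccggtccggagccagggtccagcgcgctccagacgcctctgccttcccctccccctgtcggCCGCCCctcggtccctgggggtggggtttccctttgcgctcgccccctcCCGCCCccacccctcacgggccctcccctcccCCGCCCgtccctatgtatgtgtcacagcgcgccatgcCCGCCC
BGN: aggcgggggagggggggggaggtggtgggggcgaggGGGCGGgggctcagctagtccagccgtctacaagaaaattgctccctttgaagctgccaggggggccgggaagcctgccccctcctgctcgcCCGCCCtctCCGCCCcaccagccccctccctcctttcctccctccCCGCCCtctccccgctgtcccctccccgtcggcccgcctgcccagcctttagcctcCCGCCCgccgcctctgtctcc
ASPN: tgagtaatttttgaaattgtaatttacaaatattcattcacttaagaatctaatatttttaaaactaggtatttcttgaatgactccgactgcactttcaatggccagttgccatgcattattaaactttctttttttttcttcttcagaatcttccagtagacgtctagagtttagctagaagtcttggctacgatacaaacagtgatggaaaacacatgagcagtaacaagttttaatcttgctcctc

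The GC box was present 6 times in the ACAN window, 5 times in that of BGN, 2 times in that of FMOD and once in that of VCAN, on either strand, and in 42.6% of 35116 RefSeq windows of the same length. It was not present in the windows of PRELP, OGN, ASPN and PRG4. The GC content was 77.2% for ACAN, 74.0% for BGN and 60.8% for VCAN, and 32.4% for ASPN, 36.0% for OGN and 37.2% for PRG4, against a median of 58.0% over all windows. The TATA box TATAAA was found in the windows of FMOD and OGN (10.7% of all windows), the STAT motif TTCNNNGAA in that of FMOD (6.57%) and the E-box CANNTG in those of OGN, ASPN and PRG4 (61.8%). The AP-1 motif TGANTCA (6.57% of all windows) and the SOX motif AACAAT (8.98%) had no match in the 8 windows. A match describes letters in these windows.

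Genes that work with the members were taken from lists of the same pathways. In the limma fit without Cont 1, 1.59% of all genes were called higher and 1.47% lower. Cont 1 was the highest control for each gene called higher in that fit in these lists and the marker lists below. It was the lowest control for MMP3 and SRGN, which were called lower. Leaving it out could only move these genes further in the direction called, so that fit was no independent test of them. In tissue, hyalectans are held on hyaluronan by link proteins. Of 4 tested genes among the other hyalectans and link proteins, 2 were higher and 2 lower in the SHC4 libraries (median log2 fold change 0.06), and limma and DESeq2 called 0. HAPLN1, the cartilage link protein, had normalized counts of 1139.5, 542 and 165 in the controls and 2623, 1582 and 1845 in the SHC4 libraries. The groups of HAPLN1 did not overlap (limma log2 fold change 2.07, standard error 0.56, adjusted p = 0.184). Without Cont 1, limma called HAPLN1 (2.71, adjusted p = 0.0083) and HAPLN3, another link protein (1.25, adjusted p = 0.035), higher.

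Of 7 tested other small leucine-rich proteoglycans, 6 were higher and 1 lower in the SHC4 libraries (median log2 fold change 1.63). Limma called 0 of them, whereas DESeq2 called PODN, PODNL1 and ECM2 higher. Podocan (PODN), a collagen-binding member of the class, had normalized counts of 717, 400.3 and 344 in the controls and 1249.7, 3325 and 2378 in the SHC4 libraries, without overlap. The PODN difference was 2.21 on the log2 scale by limma (adjusted p = 0.0812, standard error 0.36). By DESeq2 it was 2.25 (adjusted p = 4.76e-07, standard error 0.36). ECM2, which lies near OGN and ASPN in the genome, had means of 276 ± 178 in the controls and 832 ± 119 (SD, n = 3 each; limma adjusted p = 0.144, DESeq2 adjusted p = 0.00362). PODNL1 had means of 186 ± 115 and 499 ± 85.8 (SD, n = 3 each; limma adjusted p = 0.18, DESeq2 adjusted p = 0.0195). OMD, osteomodulin, had normalized counts of 20.5, 0 and 1.97 in the controls and 20.2, 39.1 and 34.9 in the SHC4 libraries, which overlapped (limma adjusted p = 0.227). Without Cont 1, limma called 4 of the 7 higher, namely PODN (log2 fold change 2.53, adjusted p = 0.00431), PODNL1 (2.09, adjusted p = 0.0102), ECM2 (2.28, adjusted p = 0.0025) and OMD (4.18, adjusted p = 0.0083).

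Among genes for hyaluronan synthesis, binding and breakdown, 8 of 13 tested were higher and 5 lower (median log2 fold change 0.17), limma called 0 and DESeq2 called 1. The called gene was HAS3, a hyaluronan synthase, with normalized counts of 223, 234 and 182 in the controls and 236, 638 and 474 in the SHC4 libraries, without overlap (limma adjusted p = 0.229, DESeq2 log2 fold change 1.08, adjusted p = 0.0377). CEMIP, which takes part in hyaluronan breakdown, was the most abundant of the list with 19503, 10172 and 1822 in the controls and 34376, 42808 and 41767 in the SHC4 libraries. The groups of CEMIP did not overlap (limma log2 fold change 2.47, standard error 0.69, adjusted p = 0.192), and without Cont 1 CEMIP was the 1 gene of this list called by limma (3.20, adjusted p = 0.0134). HAS2 had normalized counts of 821, 739 and 384 in the controls and 689, 238 and 362 in the SHC4 libraries, and CD44, a hyaluronan receptor, ranged from 9766 to 10835 in the controls and from 10886 to 12262 in the SHC4 libraries without overlap, with a limma log2 fold change of 0.17 (adjusted p = 0.629). HAS2 and CD44 were chosen after their values were seen.

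**Figure D5:**
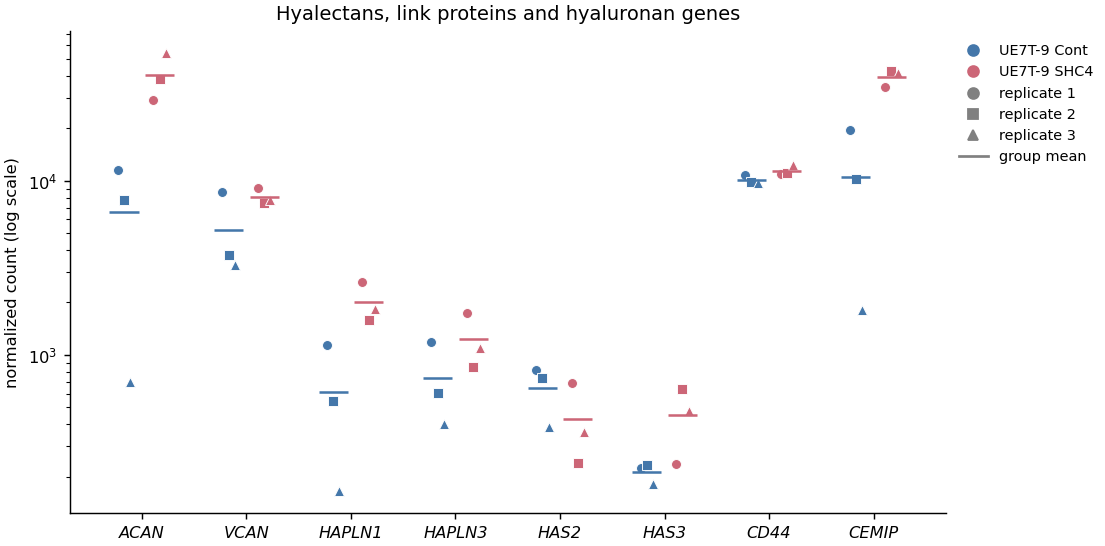
Normalized count (log axis) of ACAN, VCAN, the link proteins HAPLN1 and HAPLN3, the hyaluronan synthases HAS2 and HAS3, the receptor CD44 and CEMIP in each library, with bars for group means. ACAN, HAPLN1 and CEMIP show controls spread over a wide range and SHC4 libraries above all of them, and the groups of HAS3 and CD44 are also separate, by narrow gaps (234 against 236 for HAS3, 10835 against 10886 for CD44).

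Of 11 proteases that cleave proteoglycans, 4 were higher and 7 lower (median log2 fold change -0.19). Limma called 0 of them and DESeq2 called MMP3 lower. MMP3, stromelysin, had normalized counts of 2.92, 118 and 66.9 in the controls and 8.79, 3.33 and 9.32 in the SHC4 libraries, and the groups overlapped through Cont 1 (limma adjusted p = 0.433, DESeq2 adjusted p = 0.0214). HTRA1, a serine protease, was the most abundant with 10990 ± 3179 in the controls and 21254 ± 6678 in the SHC4 libraries (SD, n = 3 each; limma adjusted p = 0.212). The DESeq2 log2 fold change was 0.95 for HTRA1 (adjusted p = 0.0285) and 0.99 for ADAMTS4 (adjusted p = 0.0235), just under the fold change threshold. Without Cont 1, limma called MMP3 lower (-3.56, adjusted p = 0.00703) and HTRA1 (1.15, adjusted p = 0.046), ADAMTS4 (1.23, adjusted p = 0.0174) and ADAMTS15 (1.25, adjusted p = 0.0154) higher. Of 6 enzymes that build the linker between core protein and sugar chain, 4 were higher and 2 lower (median 0.16), and none was called by limma or DESeq2. FAM20B, the linker kinase, was the most abundant, with means of 2379 and 2672 (limma adjusted p = 0.612), and XYLT1, which starts the chain, had the largest absolute log2 fold change of the list, with means of 1744 and 2129.9 (limma adjusted p = 0.506). Of 18 tested cell surface, basement membrane and other proteoglycans, 10 were higher and 8 lower (median 0.18), and none was called by limma or DESeq2. SPOCK1 (testican) was the most abundant, with 28737, 13046 and 6231 in the controls and 26156, 30587 and 28231 in the SHC4 libraries, and ESM1 (endocan) had the largest difference, with means of 191 ± 35.2 and 83.0 ± 70.7 (SD, n = 3 each; limma adjusted p = 0.224). Without Cont 1, limma called SPOCK1 higher (1.65, adjusted p = 0.0132) and SRGN (serglycin) lower (-1.02, adjusted p = 0.0186), and 0 of the linker enzymes. HAPLN3, ADAMTS4, ADAMTS15 and SRGN were chosen after their values were seen.

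ACAN, HAPLN1 and LUM are also expressed by cartilage and tendon cells, so markers of these and other lineages were read in the same libraries. Of 5 tested chondrocyte markers, 1 was higher and 4 lower in the SHC4 libraries (median log2 fold change -0.28), and their sum ranged from 687 to 1017 in the controls and from 740 to 907 in the SHC4 libraries. SOX9, the cartilage transcription factor, had means of 688 ± 177 and 674 ± 67.6 (SD, n = 3 each; limma adjusted p = 0.998), and COL2A1, the cartilage collagen, was at 0.832 to 2.35 in all libraries. Of 2 tested tendon markers, 2 were higher and 0 lower (median log2 fold change 0.50), and limma and DESeq2 called 0. MKX had means of 175 ± 35.9 and 285 ± 45.5 without overlap (SD, n = 3 each; limma adjusted p = 0.197). SCX, the other, had means of 48.5 ± 23.2 and 56.2 ± 14.8 with overlap (SD, n = 3 each; limma adjusted p = 0.777). The osteoblast, adipocyte, endothelial and epithelial lists had 0 calls by limma or DESeq2. Of 9 mesenchymal stem cell markers, 7 were higher and 2 lower, and DESeq2 called PDGFRB and LEPR higher while limma called 0. The lower ones were MCAM and NT5E (CD73), named here for that reason. MCAM had normalized counts of 1383, 1282 and 988 in the controls and 910, 638 and 904 in the SHC4 libraries. Its groups did not overlap (limma log2 fold change -0.58, adjusted p = 0.218). The groups of NT5E overlapped (limma log2 fold change -0.36, adjusted p = 0.508). LEPR, a marker of marrow stromal cells, had normalized counts of 862, 658 and 398 in the controls and 1493, 1132 and 1699 in the SHC4 libraries (limma adjusted p = 0.137, DESeq2 adjusted p = 0.00344). PDGFRB, a receptor of stromal cells, had 4122, 1487 and 1678 in the controls and 6634.5, 5281 and 5178.5 in the SHC4 libraries (limma adjusted p = 0.162, DESeq2 adjusted p = 0.0171). Without Cont 1, limma called 4 of the 9 higher, namely PDGFRB (1.84, adjusted p = 0.000698), LEPR (1.47, adjusted p = 0.00934), CXCL12, a marrow chemokine (2.83, adjusted p = 0.00262), and THY1 (1.67, adjusted p = 0.00167, chosen after its values were seen). These 4 stromal markers were called in the same fit as the 5 proteoglycan members. Cont 1 was the highest control for each of the 4 as well, so that fit was no independent test of them either. In that fit limma also called HLA-DRA of the hematopoietic list higher (1.03, adjusted p = 0.0259), and 0 genes of the chondrocyte, tendon, osteoblast, adipocyte, endothelial and epithelial lists. The part of such differences in stromal markers in the proteoglycan values was not tested.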

How the data were processed

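Novogene sequenced RNA from 6 samples of the UE7T-9 line, 3 with SHC4 and 3 controls. Per gene, the authors deposited a normalized signal, which is the gene count over a size factor of the library. The submitters' processing notes name HISAT2 2.0.5, featureCounts 1.5.0-p3 and DESeq2. Genome build, annotation and strand setting are not given in the sources used here. Each library's values could be turned back into whole reads (100% of values, tolerance 0.01 reads) that totalled 18144993 to 27721397, and the size factors were DESeq2's median of ratios.

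Symbols were found for all 28181 identifiers (27968 in a current name table, the rest in GENCODE 29), and positions are from GENCODE 29 on GRCh38, matched by identifier. The fit used limma 3.58.1 (eBayes with trend, R 4.3.3) on log2(normalized count + 1), on which changes of scarce genes are understated, for 23040 genes with a mean of at least 1 (5141 left out), and Benjamini-Hochberg adjusted p-values. Calls required adjusted p < 0.05 and a log2 fold change beyond 1 in either direction. Alternatives were DESeq2 1.42.0 and edgeR 4.0.16 on recovered reads, other scalings, filters and pseudocounts, a replicate block, and leaving out each library. On simulated counts for this comparison (23040 genes), recovery by limma was scored without the fold change condition. It was 61.5% of 200 genes changed by 1 on the log2 scale and 99.0% of 200 changed by 2. In these runs limma called 18 and 21 other genes. DESeq2, scored in the same way, recovered 83.0% and 99.5%, with 58 and 45 other genes called. The SD of log2 values in the controls was 2.19 for ACAN and 1.97 for BGN, against a median of 0.198 over genes. Recovery of genes with so wide a spread was not tested, so the rates do not carry over to these members. The genes named from other lists are those called, the most abundant and the one with the largest change among those with a mean of at least 10, and marker lists are given by counts with examples. The members, lists and motifs were chosen with earlier results of these data known. The 95% intervals are from the limma fit and cover the spread between libraries, while the floor of 3 reads covers counting error only.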

Additional observations from a re-analysis of the deposited data

How the results depend on the processing

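Over all genes, 12 were called higher and 2 lower by limma. DESeq2 on the recovered reads called 170 and 185, and edgeR 9 and 1. Library size scaling gave 19 and 5, TMM scaling 20 and 4, no filter on low values 31 and 9, and a pseudocount of 0.1 or 5 gave 11 and 1 each, and a mean of at least 10 gave 11 and 2. Library size scaling moved the median of all genes to -0.10 on the log2 scale, and 7 of 9 tested members stayed above 0 with a median of 0.68. Leaving out 1 library gave from 1 to 367 genes higher and from 0 to 339 lower, both highest without UE7T-9 Cont replicate 1. The number of called proteoglycan members was 0 in each of the settings with all 6 libraries and ranged from 0 to 5 with 1 library left out, with 5 without UE7T-9 Cont replicate 1. The median log2 fold change of the tested members ranged from 0.23 to 1.42 with 1 library left out. The count of members with every UE7T-9 SHC4 library above every control, an alternative added after seeing the data, ranged from 2 to 6. It was 6 without UE7T-9 Cont replicate 1 and 4 without UE7T-9 SHC4 replicate 1. The share over all genes was not computed for the latter setting. The cause of these shifts was not tested.

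The log2 fold change of ASPN was -0.038 under library size scaling and ranged from -0.24 to 0.38 with 1 library left out, and that of LUM ranged from -0.058 to 0.42. The other 7 tested members kept their direction in every setting in which they were tested. A replicate block in the limma fit gave 25 higher and 14 lower genes and 0 members, with adjusted p-values of 0.114 for ACAN and 0.143 for VCAN. The deviations of same-numbered libraries correlated at 0.148, 0.013 and -0.007 across the 23040 genes, with 1 of 3 numbers correlating best with itself. Over the 12678 genes averaging 50 or more they were 0.409, 0.146 and 0.149, with 2 of 3. The highest correlation over these genes, 0.517, was between libraries with different numbers. Whether the numbers pair the libraries thus depended on the genes used, and the labels do not say. Every UE7T-9 SHC4 library had 3 or fewer reads of OGN and PRG4, which limits what can be said of these genes.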
